A study of Lupinus albus with 12 samples.

Results

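Acid phosphatases, phosphate transporters and proteins with an SPX domain handle inorganic phosphate at several points of a root. Of 23427 genes in the deposited table of white lupin roots, 44 formed this set. They were found by words in the UniProt protein name, "acid phosphatase", "phosphate transporter" or "SPX" in any case, with names containing "sugar", "triose" or "lipid" left out. These words occurred in 99 names, and 55 of them were left out. The rule uses names only and no expression value, but it was written with earlier results of these data known. By name, 13 members are purple acid phosphatases, 13 are other acid phosphatases, 6 are phosphatidic acid phosphatases, 2 are phosphate transporters and 10 carry SPX in the name. The exclusion of "lipid" did not reach the phosphatidic acid phosphatases, and they are described as a group of their own. A gene named Phosphate transporter 2 was among those left out, because the rest of its name contains an excluded word.

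Acid phosphatases release phosphate from organic esters, and roots secrete part of them into the soil. White lupin is known for this: under phosphate shortage it builds cluster roots, dense bottlebrush-like lateral roots that release organic acids and acid phosphatase. Purple acid phosphatases are metal-containing enzymes of this kind and occur both outside the cell and inside it. Phosphate transporters of the PHT1 type are proton symporters of the plasma membrane that take up the released phosphate. SPX domains bind inositol pyrophosphates, which follow the phosphate status of the cell. In Arabidopsis, stand-alone SPX proteins hold back PHR1, a MYB transcription factor of the phosphate starvation response, while SPX domains are also part of phosphate exporters (PHO1) and of vacuolar phosphate transporters (SPX-MFS proteins). Phosphatidic acid phosphatases act on a membrane lipid and are not known for phosphate acquisition from soil.

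All plants were wild-type *Lupinus albus* of the cultivar Amiga in hydroponic culture with complete Hoagland nutrient solution, so that no group was starved of phosphate. Roots were sampled before (0 min, control) or after 10, 15 or 20 min with 10 mM sucrose in the solution, and cDNA of root tip sections was sequenced on Oxford Nanopore flow cells, giving 12 libraries, 3 for each time point. The methods of the study assign 1 flow cell to each biological replication, so equal replicate numbers mean a common flow cell, and flow cell and replicate plant cannot be told apart. The labels speak of 3 plants per replicate and the methods of 1. Controls received no added sucrose. Sucrose was added directly to the solution in place. An addition without sucrose, sampled at 10, 15 or 20 min, is not among the groups. Sucrose, the act of addition and elapsed time therefore cannot be told apart.

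The deposited values are whole numbers named CPM, but their sums per library ranged from 184071 to 407780, so they are treated as scores of unknown depth. For tests they were divided by a size factor of each library (0.701 to 1.28) and put on the scale log2(scaled value + 1). A log2 difference on this scale understates the change of genes with low values. Between 13808 and 17143 genes were above 0 in a library, and between 26 and 35 of the 44 members. Genes named for chlorophyll binding or a photosystem (97 genes) took 0.0912% to 0.87% of a library total, and CASP-like genes (40 genes), a family that includes endodermal proteins of roots, took 0.0549% to 0.173%. The CASP-like list was added after values had been seen.

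Most members had low deposited values. The mean value over the 12 libraries was below 5 for 34 of the 44 members, and at least 10 for 4. These counts were not made for all genes, so they do not place the members within the table. Per kb of annotated gene span, the members ranged from the 5.72nd to the 89.3rd percentile of all genes. A value above 0 in all 12 libraries was found for 18 members (40.9%), compared with 38.2% of all genes. Another 8 were above 0 in 3 libraries or fewer. The members lie on 21 chromosomes of the assembly CNRS_Lalb_1.0, none overlaps another annotated gene, and the closest pair, Lalb_Chr08g0237131 and Lalb_Chr08g0237241, is 120710 bp apart. The other acid phosphatases took 46.9% of the summed values of the members, the purple acid phosphatases 30.6%, the phosphatidic acid phosphatases 14.7%, the SPX genes 6.17% and the phosphate transporters 1.61%. Just 4 genes, Lalb_Chr25g0280201, Lalb_Chr21g0312481, Lalb_Chr24g0394011 and Lalb_Chr13g0301431, made up 49.7%. A value of 0 is reported only as listed.

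The other acid phosphatases held the gene with the largest average difference between sucrose and control, Lalb_Chr21g0312481 (chromosome 21, 4947558 to 4949544). Of the 13 genes in this group, 7 share its combination of GO terms, acid phosphatase activity and nutrient reservoir activity; the latter term is used for vegetative storage proteins, relatives of these enzymes in legume leaves. Per kb of annotated gene span, introns included, its mean value of 11.95 was at the 89.3rd percentile of all genes. In replicates 1, 2 and 3, the control values were 11, 4 and 19. They were 32, 42 and 22 (10 min), 26, 28 and 37 (15 min) and 23, 34 and 7 (20 min). At 10 and 15 min every library was above every control library, whereas at 20 min replicate 3 fell between the lowest and the middle control value. The log2 difference was 1.32 (SE 0.49, limma, unadjusted p = 0.0199) at 10 min, 1.49 (unadjusted p = 0.0107) at 15 min and 0.55 (unadjusted p = 0.284) at 20 min. Over all 9 sucrose libraries it was 1.12 (SE 0.40, limma, unadjusted p = 0.0165, adjusted p = 1). Within flow cells 1, 2 and 3 the difference was 1.07, 2.19 and 0.09. An exact permutation test within flow cells (64 assignments, two-sided) gave p = 0.0625. The difference at 15 min was just short of the log2 FC of 1.5 used as threshold in the study, so this gene was not called at any time point. It passed at 10 min without control replicate 3 (1.62) or 10 min replicate 3 (1.51), and at 15 min when replicate 1 (1.60) or 3 (1.77) of the control, or 15 min replicate 2 (1.62), was left out, each with an adjusted limma p above 0.05. Without the library of 20 min replicate 3 the difference at 20 min was 1.102, and without control replicate 2, the library with the lowest value, the difference over all sucrose libraries was 0.74 (unadjusted p = 0.119). The other 6 genes with the nutrient reservoir term include Lalb_Chr25g0280201 and Lalb_Chr24g0394011.

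Lalb_Chr25g0280201 (chromosome 25, 1512920 to 1515827), the member with the highest mean value, had control values of 22, 14 and 19. They were 26, 29 and 26 (10 min), 16, 46 and 26 (15 min) and 45, 23 and 14 (20 min). The 10 min libraries lay above the control libraries as deposited but not after scaling, the 15 and 20 min libraries overlapped them, and the highest values came from different flow cells. The log2 difference over all sucrose libraries was 0.29 (SE 0.33, limma, unadjusted p = 0.411). Lalb_Chr24g0394011 (chromosome 24), named here after its values were seen, had 21, 26 and 20 (control), 21, 27 and 16 (10 min), 14, 28 and 14 (15 min) and 23, 25 and 24 (20 min). All its groups overlapped. Scaled by library it was lower with sucrose in all 3 flow cells, by a log2 difference of −0.32 (SE 0.30, limma, unadjusted p = 0.298). Thus 3 abundant genes with the same GO terms had differences of 1.12, 0.29 and −0.32, and the difference between genes was not tested.

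The low members of this group gave little more than single values. Lalb_Chr06g0169481, named after its values were seen, had 1, 0 and 0 (control), 4, 2 and 2 (10 min), 0, 3 and 0 (15 min) and 1, 5 and 0 (20 min). Its 10 min libraries were above the control libraries, and those of 15 and 20 min overlapped them. The log2 difference at 10 min was 1.35 (SE 0.65, limma, unadjusted p = 0.0601). With the flow cell as a block the unadjusted limma p was 0.0394. The remaining 9 acid phosphatases that are not purple acid phosphatases stayed at or below 5 in all 12 libraries. Of the 12 genes tested in this group, 7 had a difference above 0 over all sucrose libraries, with a median of 0.04 and a range from −0.41 to 1.12.

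**Figure D1:**
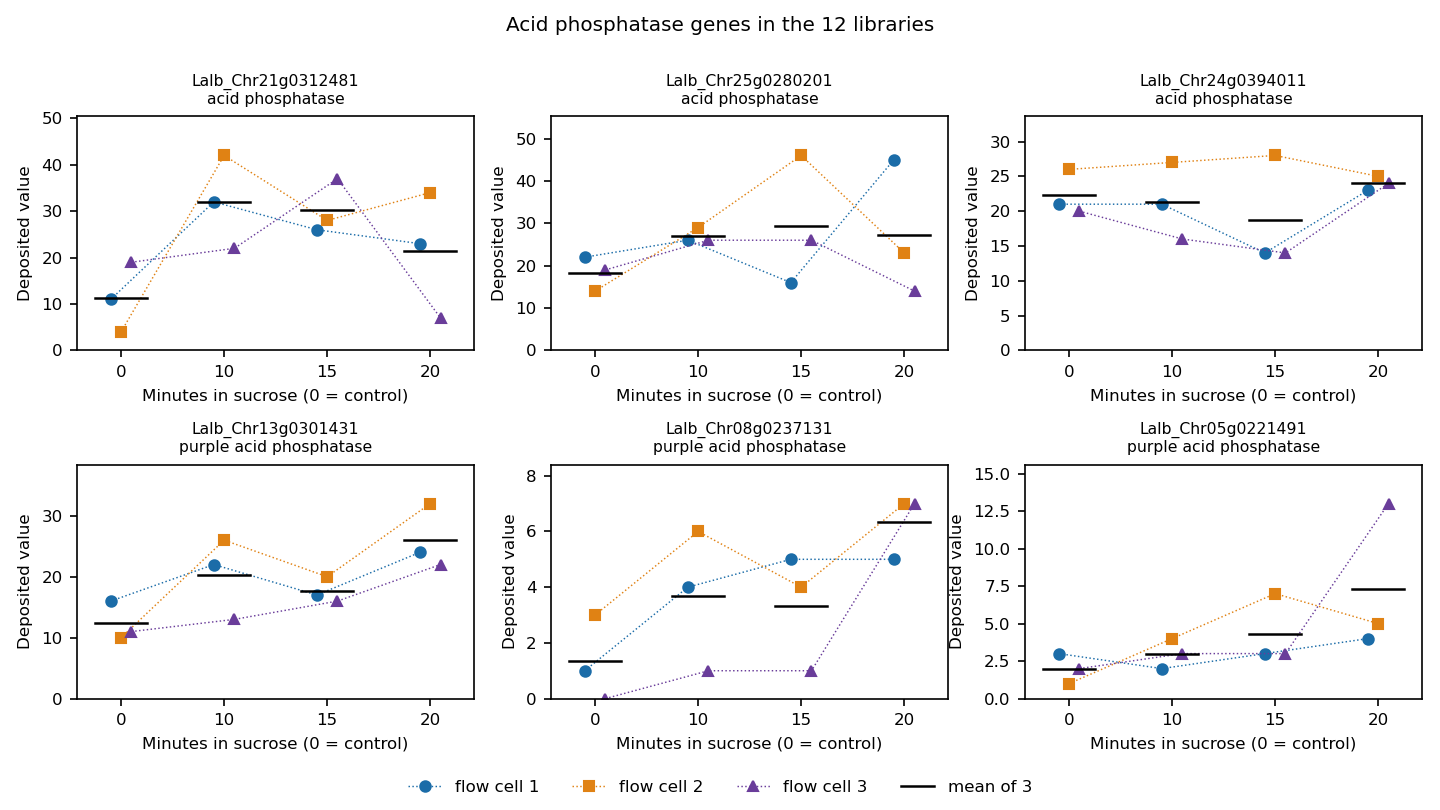
Deposited values (vertical axis, each panel with its own scale from 0) of 6 acid phosphatase genes against minutes in sucrose; points are libraries, marked by flow cell and joined by dotted lines, and bars are means of 3 libraries. For Lalb_Chr21g0312481, all 10 and 15 min libraries (22 to 42) lie above the control libraries (4 to 19), and flow cell 3 drops to 7 at 20 min.

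Among the purple acid phosphatases, 1 gene passed the thresholds of the study at 1 time point. Lalb_Chr08g0237131 (chromosome 8, 10525864 to 10533178), annotated as extracellular, had control values of 1, 3 and 0. They were 4, 6 and 1 (10 min), 5, 4 and 1 (15 min) and 5, 7 and 7 (20 min). All 20 min libraries were above all control libraries, and in flow cell 3 the value was 0 or 1 until 15 min. The log2 difference at 20 min was 1.55 (SE 0.68, limma, unadjusted p = 0.0408, adjusted p = 1), and over all sucrose libraries it was 1.06 (unadjusted p = 0.0785). With the flow cell as a block the unadjusted p-values were 0.0136 and 0.0313. The call at 20 min was lost when control replicate 1 or 3, 10 min replicate 1, 15 min replicate 2 or any 20 min replicate was left out (7 of the 12 libraries), with differences from 0.98 (without control replicate 3) to 1.67 (without 20 min replicate 1). Without control replicate 2 the call was kept, with a difference of 2.20, and without flow cell 3 the difference was 0.88.

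Lalb_Chr13g0301431 (chromosome 13, 14295492 to 14300920), the most abundant purple acid phosphatase and named after its values were seen, had control values of 16, 10 and 11. They were 22, 26 and 13 (10 min), 17, 20 and 16 (15 min) and 24, 32 and 22 (20 min). In each flow cell every sucrose value was above the control value as deposited, and at 20 min all 3 libraries were above all control libraries. The log2 difference was 0.73 (unadjusted p = 0.052) at 20 min and 0.51 (SE 0.27, limma, unadjusted p = 0.09) over all sucrose libraries, and 0.22, 0.60 and 0.71 within flow cells 1, 2 and 3. Its exact p within flow cells was 0.0156, the smallest that 64 assignments can give, with no adjustment. It was the only member among 38 (2.63%) with such an exact permutation p of at most 0.05, beside 4.24% of all genes tested. Over all 220 assignments of 9 and 3 libraries the exact p was 0.0409.

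Lalb_Chr05g0221491 (chromosome 5), also named after its values were seen, carries a peroxidase term beside the acid phosphatase term. The libraries gave 3, 1 and 2 (control), 2, 4 and 3 (10 min), 3, 7 and 3 (15 min) and 4, 5 and 13 (20 min). All 20 min libraries exceeded the control libraries, and replicate 3 stood highest. The log2 difference at 20 min was 1.15 (SE 0.48, limma, unadjusted p = 0.0343), and 0.65 (unadjusted p = 0.166) without the library of 20 min replicate 3. Of the 11 purple acid phosphatases tested, 6 had a difference above 0 over all sucrose libraries, with a median of 0.07 and a range from −0.32 to 1.06. The 2 that were not tested, Lalb_Chr20g0117931 and Lalb_Chr23g0266391, were above 0 in a single library each, with values of 1 and 3.

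The phosphatidic acid phosphatases are lipid enzymes that entered the set by words of the name. None carries the GO term of acid phosphatase activity, and all carry the peroxidase term that Lalb_Chr05g0221491 also has. All 6 were tested and none passed a threshold. Lalb_Chr23g0277971 was the most abundant of them, with 6, 4 and 12 (control), 8, 5 and 10 (10 min), 5, 9 and 12 (15 min) and 8, 6 and 8 (20 min). Its groups overlapped at every time point. The differences over all sucrose libraries ranged from −0.37 to 0.15 with a median of −0.09.

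The phosphate transporters were close to the lower limit of the table. Lalb_Chr05g0216571 (chromosome 5, 3269005 to 3272777), annotated as a membrane symporter for inorganic phosphate, had control values of 1, 1 and 4. They were 1, 1 and 9 (10 min), 0, 0 and 10 (15 min) and 1, 0 and 6 (20 min). Replicate 3 was high in every group, control included, and replicates 1 and 2 were at 0 or 1. The log2 difference over all sucrose libraries was −0.15 (SE 0.80, limma, unadjusted p = 0.854), and its sign changed with the constant added to the values (0.063 with 5). The other transporter, Lalb_Chr16g0381911 (chromosome 16), was listed at 1 in 20 min replicate 1 and at 0 in the other 11 libraries, and was not tested. No difference with sucrose was detected for Lalb_Chr05g0216571, but its 95% interval ran from −1.91 to 1.61. For Lalb_Chr16g0381911 none could be assessed. The gene Phosphate transporter 2 (Lalb_Chr17g0337571), which the word "sugar" in its name kept out of the set, had far higher values, with 55, 7 and 43 (control), 70, 33 and 60 (10 min), 16, 52 and 37 (15 min) and 52, 41 and 33 (20 min). Its sucrose libraries overlapped the control libraries at every time point after the scaling, and the log2 difference was 0.41 (SE 0.46, limma, unadjusted p = 0.392).

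SPX genes were low throughout and none passed a threshold at any time point. The GO terms divide them: 4 carry the cellular response to phosphate starvation, as stand-alone SPX proteins do, and 3 carry phosphate ion transport, the function of PHO1-type exporters. The name of Lalb_Chr01g0009511 joins SPX to a major facilitator domain, and its values stayed between 1 and 3 in all 12 libraries. The most abundant SPX gene, Lalb_Chr22g0361501 (chromosome 22, 14816724 to 14818928), a gene with the phosphate starvation term, had 3, 2 and 3 (control), 2, 1 and 5 (10 min), 2, 3 and 3 (15 min) and 2, 4 and 1 (20 min). Its groups overlapped, and the log2 difference over all sucrose libraries was −0.28 (SE 0.355, limma, unadjusted p = 0.438). Lalb_Chr11g0072161 (chromosome 11, 16272441 to 16275639), which has the same term and is annotated to the nucleus, was listed at 0, 0 and 1 in the control, at 10 min and at 15 min alike, and at 0, 1 and 5 at 20 min. The largest value again came from 20 min replicate 3, and the log2 difference was 0.29 (SE 0.48, limma, unadjusted p = 0.554). Lalb_Chr02g0159251, a gene with the phosphate starvation term named after its values were seen, had 1, 1 and 1 (control), 2, 2 and 4 (10 min), 1, 2 and 1 (15 min) and 2, 0 and 1 (20 min). Its 10 min libraries were above the control libraries and the later ones were not all so, with a log2 difference at 10 min of 0.64 that did not pass the thresholds. Lalb_Chr16g0385701 (chromosome 16) was listed at 3 in control replicate 3 and at 0 elsewhere. Of the 8 SPX genes tested, 4 had a difference above 0 over all sucrose libraries, with a median of −0.00043 and a range from −0.28 to 0.29.

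Few of the 44 genes passed a threshold with sucrose, and none after adjustment. Tests covered the 38 members, among 19138 genes, that reached a value of 1 in 3 libraries or more. At 10 min, 0 members passed a log2 FC of 1.5 with an unadjusted limma p of at most 0.05 upwards (0.423% of all genes) and 0 downwards (0.11%), and 1 had an unadjusted p of at most 0.05 (2.06% of all genes; 2.63% of members). At 15 min the counts were 0 up (0.486%) and 0 down (0.172%), with 1 at an unadjusted p of at most 0.05 (2.4%). At 20 min 1 was up (0.381% of all genes; 2.63% of members) and 0 down (0.209%), with 2 at an unadjusted p of at most 0.05 (2.89%). For all sucrose libraries against the control the counts were 0 up (0.303%) and 0 down (0.115%), with 1 at an unadjusted p of at most 0.05 (2.88%). The adjusted limma p was at or below 0.05 for 0 members in each of these comparisons, and for 0.00523% of all genes, which is 1 gene. In the F test over the 4 time points 0 members passed an adjusted p of 0.05 (0.00523% of all genes) and 1, Lalb_Chr21g0312481, had an unadjusted p of at most 0.05 (1.91%). Each share of members above 0 rests on 1 or 2 genes. With the flow cell as a block, more of all genes had an unadjusted limma p of at most 0.05. The count of members rose except at 15 min. It was 2 members at 10 min (3.79% of all genes) and 1 at 15 min (4.32%). At 20 min it was 4 (10.5% of members, 5.05% of all genes), and over all sucrose libraries 3 (7.89% of members, 4.95% of all genes). The 2 at 10 min were Lalb_Chr06g0169481 and Lalb_Chr21g0312481, and the latter was also the 1 at 15 min. The 4 at 20 min were Lalb_Chr08g0237131, Lalb_Chr13g0301431, Lalb_Chr05g0221491 and Lalb_Chr11g0072161. The 3 over all sucrose libraries were Lalb_Chr21g0312481, Lalb_Chr08g0237131 and Lalb_Chr13g0301431. All of these were higher with sucrose, and the lowest adjusted p among them was 0.889.

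No member had all 9 sucrose libraries above all 3 control libraries after scaling (0.298% of all genes) or all 9 below (0.214%). The median difference of the members was 0.02, 0.02 and 0.09 at 10, 15 and 20 min, beside 0.01, 0.01 and 0.04 for all genes tested. Over all sucrose libraries it was −0.02 against 0.02, and 18 of the 38 members were above 0, beside 53.01% of all genes. In 6 members (15.8%) the mean with sucrose was above the control within all 3 flow cells, beside 10.1% of all genes, and in 2 (5.26%) it was below within all 3, beside 8.54%. The 95% intervals of the difference over all sucrose libraries extended 0.56 to 2.41 to either side, with a median of 0.82. The interval lay between −1 and 1 for 17 members, while for the other 21 it held 1 or −1. A log2 difference of 1 in size on this scale was thus within the error of most members. For members with low values a doubling gives less than 1 on this scale, so the 17 do not all exclude a doubling or halving. An example is Lalb_Chr08g0230371, listed at 0, 0 and 1 in the control, with an interval from −0.79 to 0.69. Differences between the 3 sucrose time points were computed as well (114 tests), and 2 had an unadjusted limma p of at most 0.05, with none after adjustment. Between 10 and 15 min it was 0 members (1.35% of all genes). Between 10 and 20 min it was 1 of 38 (1.66% of all genes), the SPX gene Lalb_Chr17g0341811 with a log2 difference of 1.11 (limma, unadjusted p = 0.0254), listed at 0 in all 10 min libraries and at 1, 1 and 2 at 20 min. Between 15 and 20 min it was 1 (1.71%), the SPX gene Lalb_Chr10g0099621, with 0 in all 15 min libraries, 1, 1 and 2 at 20 min, and a log2 difference of 1.11 (limma, unadjusted p = 0.0483). Both carry the phosphate ion transport term, and both had control values within the range of 0 to 2.

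**Figure D2:**
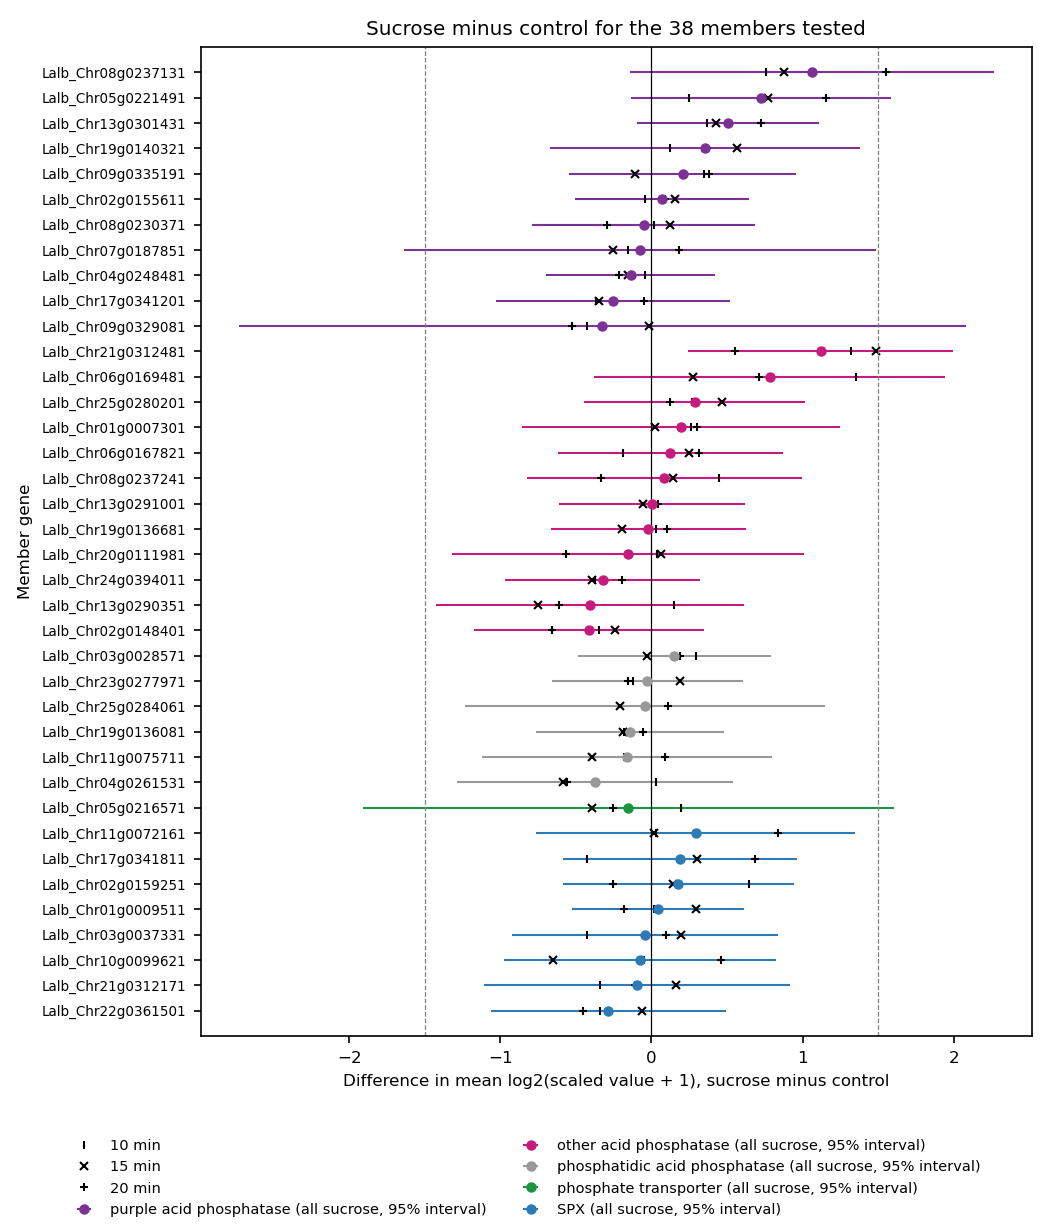
Difference in mean log2(scaled value + 1), sucrose minus control, for the 38 members tested, ordered by role and size; coloured points and bars are the difference over all 9 sucrose libraries with its 95% interval, black marks are the 3 time points, and dashed lines mark 1.5 and −1.5. The points run from −0.41 to 1.12, and only Lalb_Chr08g0237131 at 20 min (1.55) lies beyond a dashed line.

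As a share of the library total, the 44 members together took 0.0536%, 0.0576% and 0.0444% in the control replicates. The shares were 0.0565%, 0.0646% and 0.0503% (10 min), 0.0672%, 0.069% and 0.0539% (15 min) and 0.064%, 0.058% and 0.0627% (20 min). Every sucrose library was above the control library of its flow cell. Lalb_Chr21g0312481 took a varying part of these shares. Without it they were 0.0493%, 0.0554% and 0.0397% in the control and 0.047%, 0.0511% and 0.0446% at 10 min, so that the libraries of flow cells 1 and 2 at 10 min were below their controls. At 15 min they were 0.054%, 0.0597% and 0.0441%, and at 20 min 0.0564%, 0.0485% and 0.0607%, again with flow cell 2 below its control. The gene to leave out was chosen after its values were seen, and the share was not tested.

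**Figure D3:**
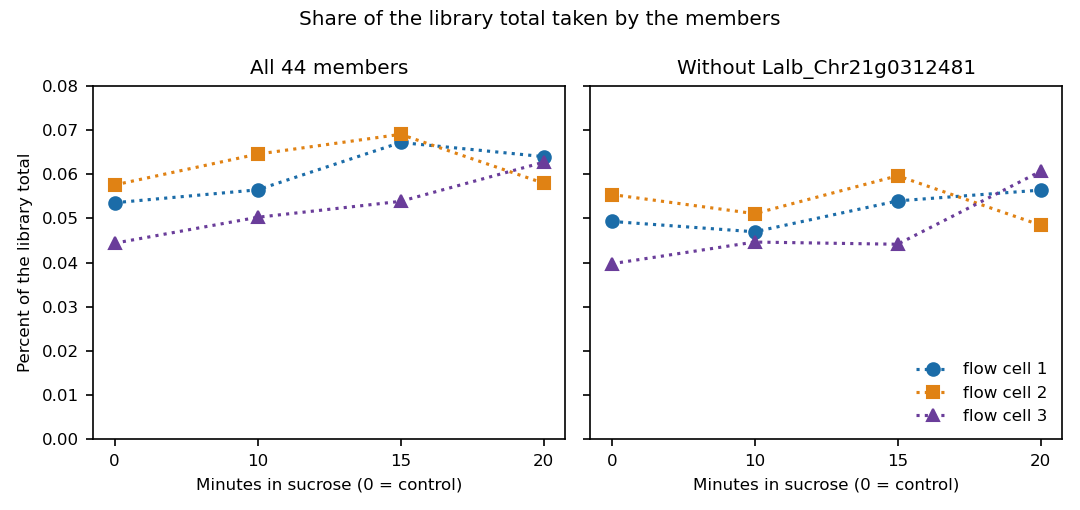
Percent of the library total taken by the members (vertical axis, from 0) against minutes in sucrose, for all 44 members (left) and without Lalb_Chr21g0312481 (right); points are libraries, marked by flow cell. With all members each sucrose library is above its own control, while without the gene flow cell 2 falls from 0.0554% to 0.0511% at 10 min and 0.0485% at 20 min.

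More members differed between flow cells, or the plants sequenced on them, than with sucrose. This comparison, flow cell 3 against flow cells 1 and 2 with the time point in the limma model, was added after the values had been seen. With an adjusted p of at most 0.05, 4 members were higher in flow cell 3 (10.5% of members, 13.3% of all genes) and 1 was lower (2.63% of members, 6.74% of all genes), so the members took no larger share than the rest of the table. All 4 libraries of flow cell 3 were above the 8 others, after scaling, for 5 members (13.2%, beside 8.88% of all genes), and below them for 0 (4.05% of all genes).

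The largest such difference belonged to Lalb_Chr09g0329081 (chromosome 9, 5509300 to 5512595), a purple acid phosphatase annotated as extracellular and named after its values were seen. In flow cell 3 its values were 16, 12, 12 and 18 at 0, 10, 15 and 20 min, and in flow cells 1 and 2 they were 0 to 2. The ranges did not overlap, and the log2 difference was 3.19 (SE 0.41, limma, adjusted p = 0.000635). Another purple acid phosphatase, Lalb_Chr07g0187851, had 4, 6, 5 and 3 in flow cell 3 and 0 or 1 in the other libraries, a log2 difference of 1.97 (adjusted p = 0.00242). The phosphate transporter Lalb_Chr05g0216571 had 4 to 10 against 0 or 1, a log2 difference of 2.23 (limma, adjusted p = 0.00234). The nuclear SPX gene Lalb_Chr11g0072161 had 1 to 5 against 0 or 1, a log2 difference of 1.23 (limma, adjusted p = 0.0112). As deposited, its value of 1 in 20 min replicate 2 equalled that of flow cell 3 at 0, 10 and 15 min. The ranges separated after scaling (0.781 against 0.838 and above) only through the size factors. Among the purple acid phosphatases, Lalb_Chr19g0140321 was on the opposite side, with 3, 2, 4 and 4 in flow cell 3 and 2 to 10 in the others (log2 difference −0.996, adjusted p = 0.0234). Here the ranges overlapped, and the call was lost when any of 5 libraries was left out. All 6 phosphatidic acid phosphatases had a difference above 0, with a median of 0.58, and none passed an adjusted p of 0.05.

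**Figure D4:**
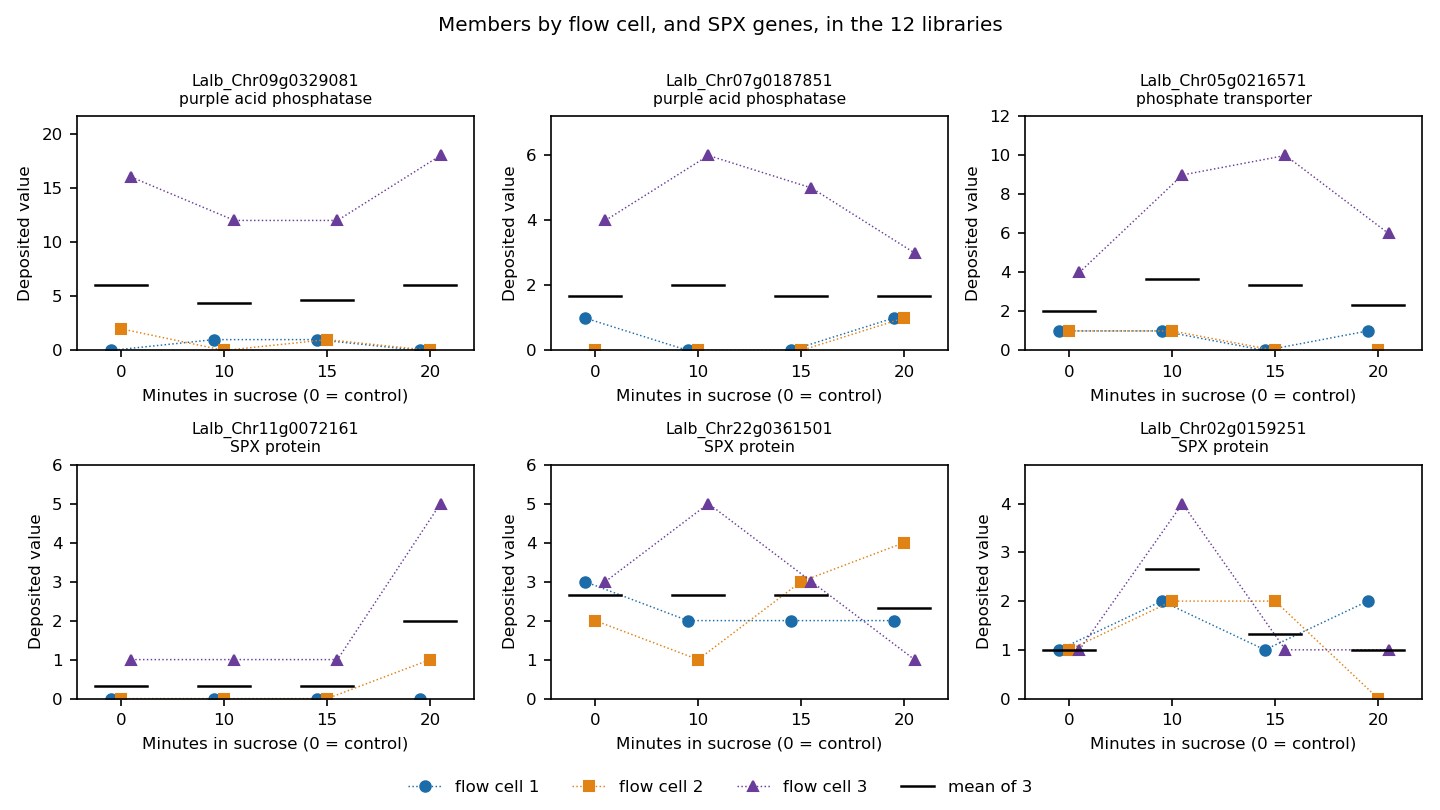
Deposited values (vertical axis, each panel with its own scale from 0) of 2 purple acid phosphatases, a phosphate transporter and 3 SPX genes against minutes in sucrose; points are libraries, marked by flow cell, and bars are means of 3 libraries. For Lalb_Chr09g0329081 flow cell 3 stays at 12 to 18 and the other libraries at 0 to 2, at 0 min as well as later.

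**Figure D5:**
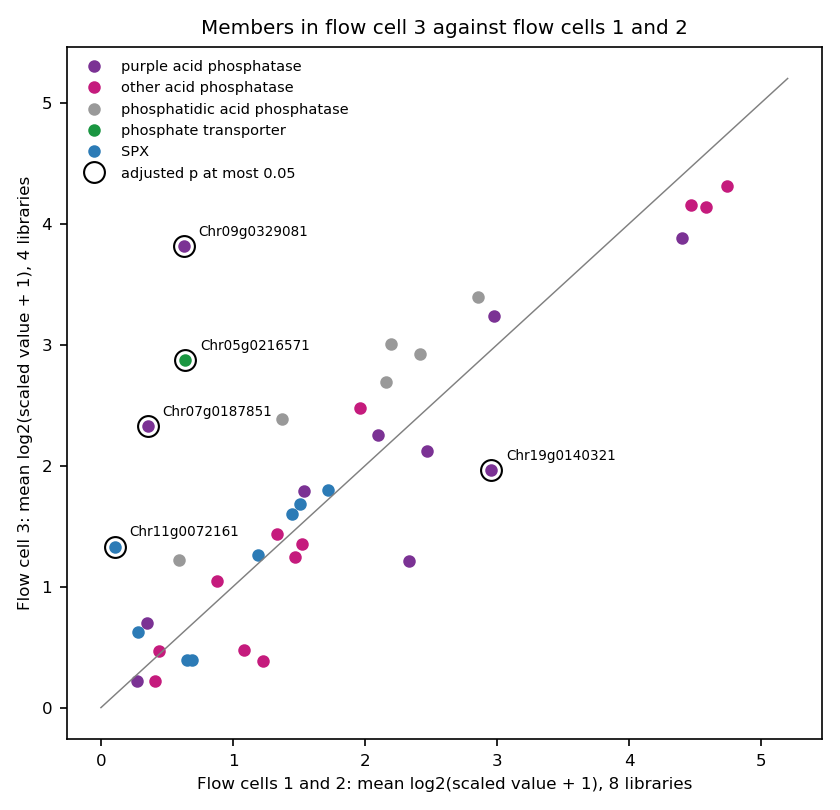
Mean log2(scaled value + 1) of each of the 38 members in the 4 libraries of flow cell 3 (vertical axis) against the 8 libraries of flow cells 1 and 2 (horizontal axis), coloured by role; the line marks equal means and circles mark an adjusted p of at most 0.05. Of the 5 circled genes 4 lie above the line.

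At 20 min, replicate 3 stood apart in several members. Of the 38 members tested, 12 (31.6%) had their highest scaled value in 20 min replicate 3, beside 19.4% of all genes tested. The summed values of the 10 SPX genes were 23 in this library and 7 to 14 in the others, and those of the 13 purple acid phosphatases 87 against 28 to 70. The 13 other acid phosphatases went the opposite way, with a sum of 56, the lowest of the 9 sucrose libraries and the second lowest of all. Lalb_Chr08g0234761, an SPX gene with the phosphate starvation term, was listed at 4 there and at 0 in all others, and Lalb_Chr23g0266391, a purple acid phosphatase, at 3 and 0. These genes were named after their values were seen. Without this library the median difference of the members at 20 min was −0.15 instead of 0.09. The difference of Lalb_Chr08g0237131 was then 1.43, compared with 1.67 and 1.55 without replicate 1 or 2, and its call was lost in each case. It was also the library with the most genes above 0 (17143), and the part of this in the members' values was not tested.

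Other genes of the phosphate response, from lists of protein names, were viewed in the same way. Of 86 genes listed 62 were tested, and at 10 min 0 passed the thresholds in either direction, at 15 min 0 up and 1 down, and at 20 min 0 in either direction. An unadjusted limma p of at most 0.05 was found for 1, 1 and 2 genes at the 3 times in order, and no adjusted p was under 1 at these time points. Phosphate remobilisation from lipids is represented by 26 genes with glycerophosphodiester phosphodiesterase in the name, 10 phospholipase D genes and 7 galactolipid synthase genes. Several of the 26, such as Lalb_Chr02g0157931, also carry a protein kinase family in the name, so they may not be lipid enzymes. They were kept in the counts and medians. Release from RNA is represented by 7 ribonuclease T2 genes. The list also holds 1 gene of sulfolipid synthesis, 2 MYB-CC factors, the family of PHR1, and 4 phosphoesterase genes. These 4 are named as calcineurin-like phosphoesterases or metallo-dependent phosphatases and not as non-specific phospholipases C. They may not belong to the phosphate response, and they too were kept in the counts and medians. The gene that passed downwards at 15 min was a glycerophosphodiester phosphodiesterase, Lalb_Chr02g0156671, with 16, 2 and 20 (control), 12, 5 and 23 (10 min), 0, 0 and 3 (15 min) and 11, 10 and 8 (20 min). As deposited, replicate 3 at 15 min reached the range of the control, whereas after scaling all 15 min libraries were below all control libraries, and the log2 difference was −2.82 (unadjusted p = 0.00214, adjusted p = 1). Organic acid release is represented by 6 phosphoenolpyruvate carboxylase genes, which supply malate and citrate synthesis, and by 23 MATE transporters, a family that includes citrate exporters. None of these 2 groups passed a threshold, and the median differences over all sucrose libraries were −0.03 and 0.20. The median over the 62 genes was 0.02, 0.04 and 0.23 at the 3 time points in order and 0.12 over all sucrose libraries, beside 0.01, 0.01, 0.04 and 0.02 for all genes. A further 9 genes, not counted in the 86, were picked by a phosphate GO term, a name with EXS or the name Phosphate transporter 2. Of these 6 were tested, 0 passed the thresholds at any time point, 0 had an unadjusted limma p of at most 0.05, and the median over all sucrose libraries was 0.05.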

How the data were processed

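The authors sequenced cDNA on Oxford Nanopore flow cells, mapped the reads to CNRS_Lalb_1.0 with Minimap2 and used Salmon within the Epi2me workflow for gene counting. The deposited value per gene and library is named CPM but holds whole numbers, and it was used as a score of unknown scale and depth. The authors' own comparison table, made with DESeq2, holds a mean signal, log2 fold changes, standard errors, a test statistic and p-values, and its values were not used. A count test had been planned and was replaced because the values carry a normalised unit's name.

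Values were divided by median-of-ratios size factors and analysed as log2(scaled value + 1) with limma 3.58.1 (R 4.3.3), with a variance trend, in 4 groups of 3 libraries, for the 19138 genes (38 of 44 members) that reached 1 in 3 libraries or more. Calls used the thresholds of the study (log2 FC of 1.5 in size, two-sided unadjusted p of at most 0.05), and Benjamini-Hochberg adjustment ran over all genes tested. Exact permutation tests (two-sided) reassigned libraries within flow cells. The script was tested on simulated data. Python 3.11.15, numpy 2.4.6, pandas 2.3.3 and scipy 1.17.1 were used.

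The replicate number is the flow cell by the study's methods, and so libraries are paired. After centring on the time point means, libraries of the same flow cell correlated with a median r of 0.289, 0.257 and 0.539 in flow cells 1, 2 and 3, and libraries differing in flow cell and time point with a median of −0.305. The last value is not separate from the others, because deviations from a mean of 3 libraries sum to 0.

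Members and lists were chosen with earlier results of these data known. Genes were named by a rule: each member past the thresholds in a comparison with the control, the 2 of each role (acid phosphatase, phosphate transporter, SPX) with the highest mean value per kb, the 2 of each role with the smallest p over all sucrose libraries, and any absent from the control and present in most sucrose libraries or the reverse (none). All other genes were named after their values were seen, also where this is not stated beside them. In the other lists, spellings for MATE transporters and ribonuclease T2 were adapted after the names had been seen, and no gene was named as an inositol pyrophosphate kinase, a non-specific phospholipase C or a Casparian strip membrane protein. All 23427 gene identifiers matched the reference annotation. Promoter and protein sequences were not used here. The limma p-values without a block rest on the spread of libraries within groups, pooled over the 4 groups of 3 and drawn towards a trend over all genes. The exact p-values come from reassigning the libraries. Alternatives were the added constant (0.5 or 5), no scaling or scaling by library total, no filter or a mean value of at least 5, the flow cell as a block, and leaving out each library or flow cell 3.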

Additional observations from a re-analysis of the deposited data

Results flagged for a closer look

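The phosphatidic acid phosphatase Lalb_Chr23g0277971 was marked because, after scaling, all 3 libraries at 10 min were below the control of their flow cell and all 3 at 15 min above it. The difference between 15 and 10 min was 0.31 on the log2 scale (limma, unadjusted p = 0.396, adjusted p = 1). Of 114 such differences between sucrose time points this was the one with this pattern.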

How the results depend on the processing

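The number of members past the thresholds was 0 or 1 in every comparison with the control under the alternatives run, and no member passed downwards in any. Upwards at 10 min it was 0, and 1 with no scaling or without flow cell 3 (0 to 1 when each library was left out). At 15 min it was 0, and 1 with an added constant of 0.5, no scaling, scaling by library total, or without flow cell 3 (0 to 1). At 20 min it was 1, and 0 with an added constant of 5, scaling by library total, a mean value of at least 5, or without flow cell 3 (0 to 1). For all sucrose libraries it was 0, and 1 without flow cell 3 (0 to 1). Without flow cell 3 the difference of Lalb_Chr21g0312481 over all sucrose libraries was 1.67 (limma, adjusted p = 0.247). The median over the members was 0.19 at 10 min and 0.15 over all sucrose libraries with no scaling, which moves the median of all genes tested to 0.19 and 0.18, and −0.15 at 20 min without 20 min replicate 3. The difference of the phosphate transporter Lalb_Chr05g0216571 turned to 0.063 with a constant of 5 and ranged from −0.51 to 0.17 when each library was left out. In the comparison of flow cells 0 to 4 members were lower (4 without 20 min replicate 3) and 4 to 5 higher when each library was left out. With the flow cell as a block, the call of Lalb_Chr08g0237131 at 20 min stayed (unadjusted p = 0.0136), no call by both thresholds changed, and the number of members with an unadjusted p of at most 0.05 rose from 1 to 2 at 10 min, from 2 to 4 at 20 min and from 1 to 3 over all sucrose libraries. The cause of these changes was not tested. The unknown depth of the values and 3 libraries per group limit what can be seen for the 34 members with a mean value below 5.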
